A study of Macaca mulatta with 27 samples.

Results

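Polycomb group genes encode the subunits of 2 families of chromatin complexes that keep developmental genes silent. Here, the RNA levels of 36 of them were followed in rhesus monkey pluripotent stem cells (PSCs) before and after 7 protocols meant to bring the cells from primed to naive pluripotency. The members were a named list, and all 36 were among the 17967 genes of the count tables. They comprise 11 genes of Polycomb repressive complex 2 (PRC2), 10 of canonical PRC1, the 2 ubiquitin ligases that every PRC1 shares, 10 of variant PRC1, and the 3 ASXL scaffolds of the deubiquitinase PR-DUB.

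Polycomb repressive complex 2 places methyl groups on lysine 27 of histone H3, through EZH2 or its paralog EZH1. Canonical PRC1 reads that mark with a CBX subunit and compacts chromatin with the help of PHC proteins that polymerize. Variant PRC1 lacks CBX and PHC subunits, carries RYBP or YAF2 instead, and places ubiquitin on histone H2A, which PR-DUB removes. The choice of the PCGF subunit (PCGF2 or BMI1 in canonical PRC1, and PCGF1, PCGF3, PCGF5, or PCGF6 in variant PRC1) names each PRC1. In pluripotent cells, these complexes occupy the promoters of regulators of later lineages.

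The cells were LyonES-tGFP-(S3), 1 clonal rhesus line that carries a tauGFP transgene driven by the CAG promoter and a lentiviral STAT3-ER T2, a STAT3 that tamoxifen activates. All groups share these alleles. Bulk mRNA was sequenced from 6 libraries of primed cells and 3 libraries each of E-NHSM, TL-CDK8i, TL2i, 4i/L/b, NHSM-v, t2iLGöY, and LCDM (EPS) cells, named after the culture medium. Tamoxifen was used in TL2i, with LIF and inhibitors of MEK and GSK3β, and in TL-CDK8i, where an inhibitor of CDK8 and its paralog replaced both inhibitors. The labels do not say whether libraries of 1 protocol came from separate cultures, so the p-values measure the spread between libraries, which may be technical.

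Total counts per library ranged from 7111886 to 20760914, and levels are given as CPM, the count scaled to the library's normalized total. The labelled cell type was checked against pluripotency genes. *POU5F1* averaged 1185 CPM in primed cells, 1363 CPM under E-NHSM, and 498 CPM under TL-CDK8i, against 0.296 to 6.43 in the other 5 protocols. *NANOG* averaged 134 CPM in primed cells and at most 0.316 in those 5, with no read in any NHSM-v or t2iLGöY library. Both markers were thus near 0 in TL2i, 4i/L/b, NHSM-v, t2iLGöY, and LCDM (EPS) cells. The summed CPM of a list of 7 pluripotency markers with these 2 fell less far. This sum was 5407 to 6261 CPM in primed cells, 427 to 513 in TL2i, and 420 to 444 in LCDM (EPS). In 4i/L/b, NHSM-v, and t2iLGöY, the sums were 124 to 197. The sum does not stand for the typical marker. In these 5 protocols, the median log2 fold change of the 7 markers ranged from -7.52 in TL2i to -10.1 in 4i/L/b. All 7 were called lower in TL2i, 4i/L/b, NHSM-v, and t2iLGöY, and 6 of 7 in LCDM (EPS). The names of these groups therefore stand for the protocol applied, not for a verified state. In bulk RNA, a change in the share of cells that express a gene cannot be told apart from a change in its level per cell. The 6 primed columns carry the letters J or K, and K differed from J at 469 genes (3.73% of those tested) and at 3 of 35 members, *MTF2*, *PHF1*, and *KDM2B*.

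Each protocol was set against the same 6 libraries of primed cells with the quasi-likelihood test of edgeR, and a gene was called at a Benjamini-Hochberg adjusted p under 0.05 over all genes tested. The 7 comparisons share their controls and are not independent of each other. In E-NHSM, 1 of 35 members tested was higher (11.1% of all genes) and 10 were lower (15.1%), where 26.2% of all genes were called. In TL-CDK8i, 10 of 36 members were higher (22.3% of all genes) and 13 lower (23.8%), with 46.1% of all genes called. In TL2i, 17 were higher (25.6% of all genes) and 14 lower (25.2%), with 50.7% called. The 4i/L/b cells held 15 members at a higher level (26.6% of all genes) and 17 at a lower level (29%), with 55.6% called. In NHSM-v, 13 members were higher (28%) and 13 lower (30.6%), with 58.6% of all genes called. The t2iLGöY cells held 16 members at a higher (27.1%) and 13 at a lower level (27.2%), with 54.3% of all genes called. In LCDM (EPS), 21 were higher (28.2%) and 11 lower (28.9%), with 57.1% of all genes called.

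The members called thus made up 31.4% of those tested in E-NHSM, 63.9% in TL-CDK8i, and 72.2% to 88.9% in the other 5 protocols. Members sit at higher levels than most genes, and between 25 and 28 of them lay above the median level of the genes tested in each comparison, and the part of this in the shares called was not tested. A log2 fold change of at least 1 in size was then also required. In E-NHSM, 5 members passed (14.3%, against 9.09% of all genes). TL-CDK8i had 6 (16.7%, against 19.3%), a share below that of all genes. In TL2i and 4i/L/b, 13 passed in each (36.1%, against 24.2% and 29% of all genes). NHSM-v had 17 (47.2%, against 34.4%), t2iLGöY 16 (44.4%, against 31.5%), and LCDM (EPS) 16 (44.4%, against 32% of all genes). The plot of shares called sets no minimum on the fold change. There, the members' bars stand above those of all genes in both directions in the 6 protocols other than E-NHSM. In E-NHSM, they do so among lower genes but not among higher ones. This is a description without a test.

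**Figure D1:**
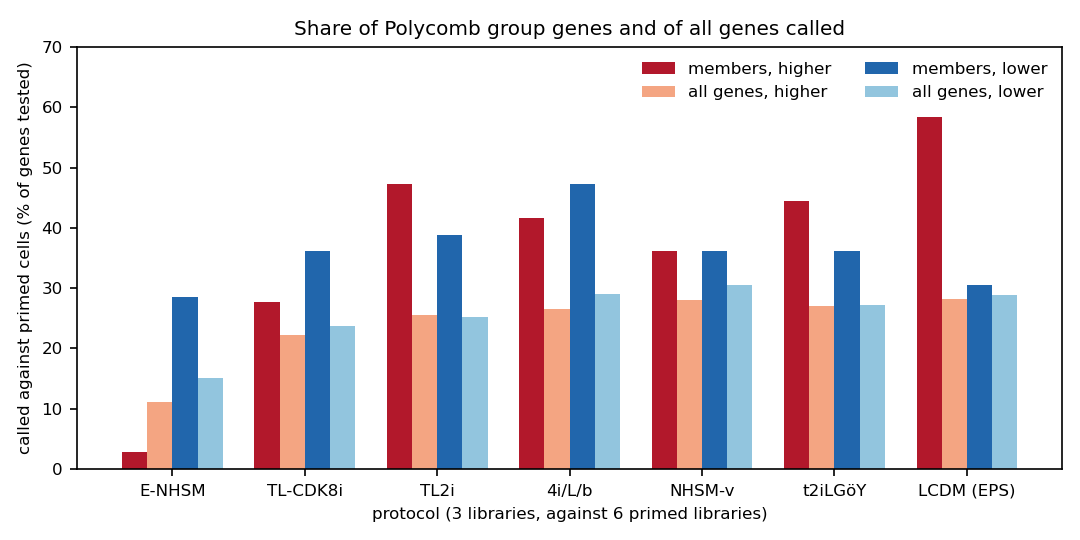
Percent of Polycomb group genes tested (36, or 35 in E-NHSM) and of all genes tested that were called higher or lower than in primed cells, for each protocol. Dark bars are members and pale bars all genes, and the largest difference in the plot is that of LCDM (EPS), where 21 of 36 members were higher.

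The members did not move in 1 direction. Their median log2 fold change was -0.14 in E-NHSM, 0.10 in TL-CDK8i, 0.22 in TL2i, 0.00 in 4i/L/b, -0.01 in NHSM-v, 0.22 in t2iLGöY, and 0.52 in LCDM (EPS), where the median of all genes tested lay between -0.02 and 0.07. Each of the 36 members was called in at least 1 protocol, and the share of all genes for which this holds was not computed. In at least 5 of the 7 protocols, 12 members were higher (14% of 13259 genes tested were) and 11 were lower (18.4% of all genes), and 13 fell in neither class. Those higher were *BMI1*, *CBX8*, *PHC2*, *PHC3*, *SCMH1*, *RING1*, *PCGF3*, *PCGF5*, *BCORL1*, *YAF2*, *ASXL1*, and *ASXL3*. For *ASXL3*, only a rise could be called, since only its protocol libraries held enough reads for it to be tested. Those lower were *RBBP7*, *JARID2*, *MTF2*, *AEBP2*, *CBX7*, *PHC1*, *KDM2B*, *BCOR*, *RYBP*, *L3MBTL2*, and *ASXL2*. Of the 184 calls, 145 held when any single library was left out, and with these calls alone, 8 members were higher and 8 lower in at least 5 protocols. This was counted for members only, so the 14% and 18.4% of all genes are no base for it.

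**Figure D2:**
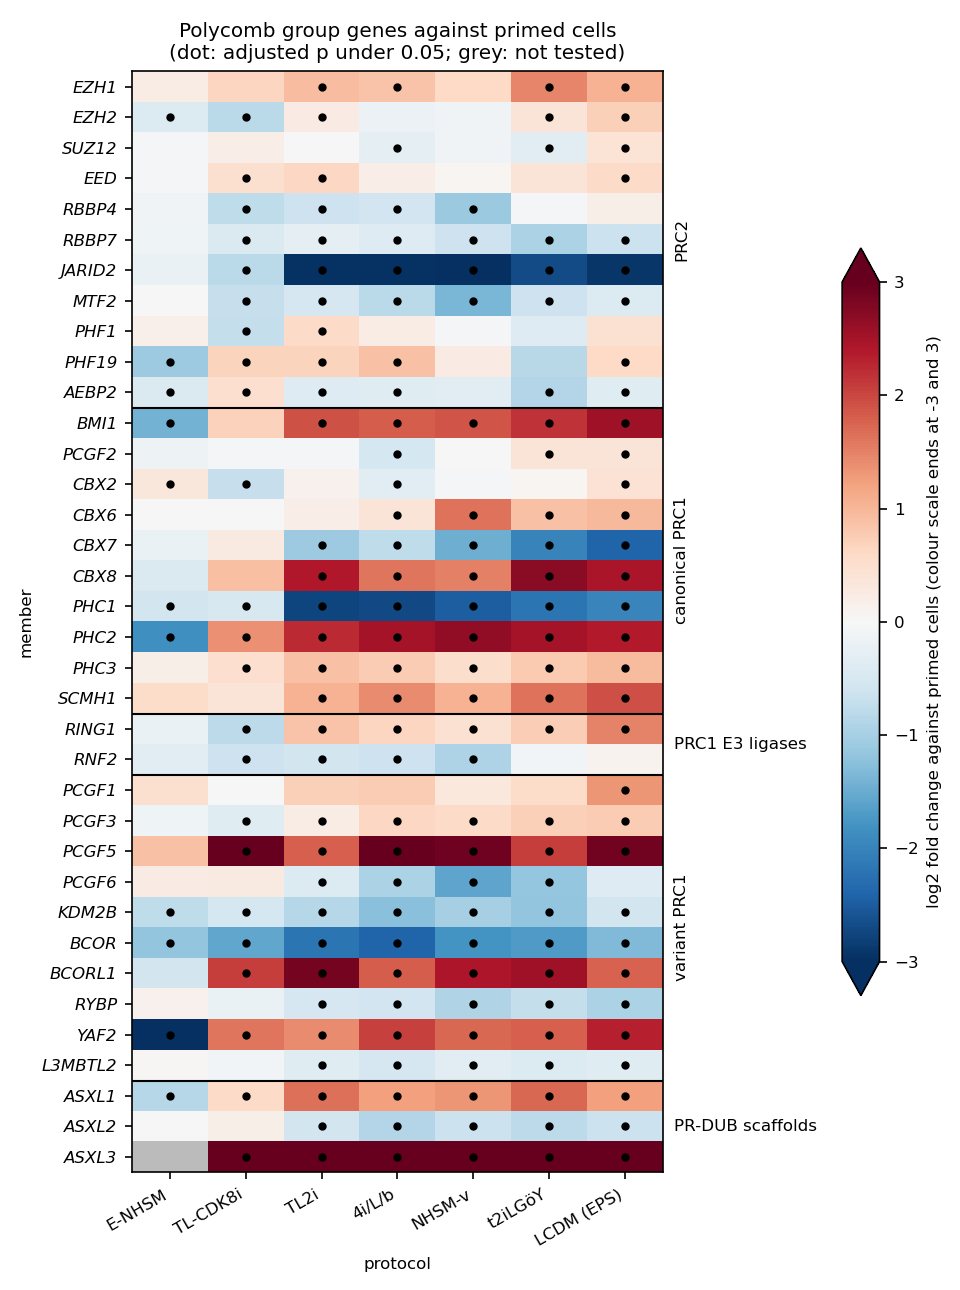
Log2 fold change of each member in each protocol against primed cells, by complex. Red is higher and blue lower than in primed cells, a dot marks an adjusted p under 0.05, and ASXL3 in E-NHSM was not tested. Rows such as PHC1 and BCOR are blue across all 7 protocols, whereas PHC2, YAF2, and ASXL1 are blue in E-NHSM and red in the other 6.

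Among the core genes of PRC2, *EZH2* and *SUZ12* were called in both directions, depending on the protocol. *EZH1*, *EED*, *RBBP4*, and *RBBP7* were never called both ways. *EZH2*, the main methyltransferase, ranged from 133 to 163 CPM with a median of 156 in primed cells and held 89.9, 92.3, and 86.96 CPM in TL-CDK8i and 233, 260.0, and 236 in LCDM (EPS). Neither group overlapped with primed cells, one below and the other above. *EZH2* fell in TL-CDK8i (log2 fold change -0.80, adjusted p = 1.32e-05) and E-NHSM (-0.42, adjusted p = 0.00407) and rose in LCDM (EPS) (0.71, adjusted p = 6.49e-06). Its call in TL2i (0.25) was lost without the primed library J1, or TL2i replicate 1 or 3 (0.19 to 0.25 then), and that in t2iLGöY (0.38) was lost without t2iLGöY replicate 1 (0.27 then). Compared directly, in a fit of all 27 libraries, TL-CDK8i lay below LCDM (EPS) with a log2 fold change of -1.46 (SE 0.097, adjusted p = 8.78e-14).

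The paralog *EZH1*, a weaker methyltransferase of less proliferative cells, ranged from 8.91 to 19.5 CPM with a median of 12.7 in primed cells and held 15.3, 17.97, and 13.7 CPM in E-NHSM and 20.8, 22.8, and 21.1 in TL-CDK8i. It reached 24.8, 27.6, and 24.3 under TL2i, 26.3, 24.5, and 25.7 under 4i/L/b, 21.6, 21.8, and 20.5 under NHSM-v, 36.5, 31.5, and 42.3 under t2iLGöY, and 29.2, 30.6, and 21.3 under LCDM (EPS). Every library of the 6 protocols other than E-NHSM lay above the highest primed library. *EZH1* was called higher in TL2i, 4i/L/b, t2iLGöY, and LCDM (EPS), and was highest in t2iLGöY with a log2 fold change of 1.48 (SE 0.26, adjusted p = 0.00021).

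*SUZ12* and *EED*, which EZH2 needs for its activity, changed by at most 0.63 on the log2 scale. *SUZ12* rose in LCDM (EPS) (log2 fold change 0.41, adjusted p = 0.000797), whereas its call in 4i/L/b (-0.27) was lost without 4i/L/b replicate 1 or 3, or the primed library K1 (-0.21 to -0.25 then), and that in t2iLGöY (-0.33) was lost without t2iLGöY replicate 1 (-0.26 then). *EED* was higher in TL2i (0.63), LCDM (EPS) (0.58), and TL-CDK8i (0.49), the last of which was lost without TL-CDK8i replicate 1 or 2 (0.37 to 0.55 then).

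The histone chaperones *RBBP4* and *RBBP7* serve PRC2 and several other complexes. *RBBP4* ranged from 236 to 321 CPM with a median of 259.6 in primed cells and held 245, 247, and 266 CPM in E-NHSM and 162, 164, and 168 in TL-CDK8i. Its values were 198, 161, and 168 under TL2i, 201, 180.0, and 185 under 4i/L/b, 133, 124, and 136 under NHSM-v, 252, 256, and 255 under t2iLGöY, and 296, 319, and 282 under LCDM (EPS). The TL-CDK8i, TL2i, 4i/L/b, and NHSM-v libraries all lay below the lowest primed library, whereas t2iLGöY and LCDM (EPS) lay within the primed range. *RBBP4* was lowest in NHSM-v, with a log2 fold change of -1.11 (SE 0.11, adjusted p = 3.89e-07). *RBBP7* was called lower in 6 protocols, with log2 fold changes from -0.30 in TL2i to -0.94 in t2iLGöY, and the TL2i call was lost without TL2i replicate 2 or 3 (-0.25 to -0.30 then).

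The most marked change in PRC2 was that of *JARID2*, an accessory subunit that helps to bring PRC2 to its target genes. Primed cells ranged from 614 to 769 CPM with a median of 709.6, E-NHSM cells held 609, 585, and 654 CPM, and TL-CDK8i cells 446, 333, and 451. Its levels were 91.9, 86.6, and 90.6 under TL2i, 96.2, 90.1, and 91.9 under 4i/L/b, 78.1, 76.01, and 77.6 under NHSM-v, 119, 104, and 99.9 under t2iLGöY, and 87.9, 90.6, and 94.1 under LCDM (EPS). The TL-CDK8i libraries lay below all primed libraries, and those of the other 5 protocols lay far below these, whereas E-NHSM overlapped with primed cells. *JARID2* was the member that fell most in each of TL2i, 4i/L/b, NHSM-v, t2iLGöY, and LCDM (EPS), by 2.67 to 3.23 on the log2 scale, and its largest fall was in NHSM-v with a log2 fold change of -3.23 (SE 0.089, adjusted p = 5.46e-13). In TL-CDK8i, it fell by 0.81 (adjusted p = 1.56e-05), and TL-CDK8i stood above TL2i in the direct comparison with a log2 fold change of 2.20 (SE 0.097, adjusted p = 3.13e-17). In E-NHSM, its log2 fold change of -0.19 did not pass (adjusted p = 0.0605).

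The Polycomb-like proteins *MTF2*, *PHF1*, and *PHF19* guide PRC2 to CpG-rich DNA, and *AEBP2* belongs with JARID2 to the same form of PRC2. *MTF2* ranged from 132 to 192 CPM with a median of 165 in primed cells and held 153, 167, and 169.8 CPM in E-NHSM and 107, 98.2, and 105 in TL-CDK8i. Its values were 118, 117, and 111 under TL2i, 102, 87.4, and 97.8 under 4i/L/b, 60.5, 72.9, and 61.6 under NHSM-v, 91.3, 116, and 103 under t2iLGöY, and 126, 104, and 132 under LCDM (EPS). All libraries of the 6 protocols other than E-NHSM lay below the primed range, and E-NHSM lay within it. *MTF2* was called lower in 6 protocols, most in NHSM-v with a log2 fold change of -1.37 (SE 0.14, adjusted p = 5.92e-07), and its LCDM (EPS) call was lost without LCDM (EPS) replicate 2 (-0.28 then).

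*PHF19* moved in the opposite direction in part of the protocols. It ranged from 8.45 to 15.9 CPM with a median of 14.9 in primed cells and held 7.23, 7.38, and 4.85 CPM in E-NHSM and 20.1, 22.3, and 25.8 in TL-CDK8i. Further values were 23.6, 19.01, and 23.7 under TL2i, 27.3, 27.6, and 24.9 under 4i/L/b, 13.8, 16.6, and 20.4 under NHSM-v, 9.37, 9.64, and 3.75 under t2iLGöY, and 19.6, 23.8, and 17.8 under LCDM (EPS). The TL-CDK8i, TL2i, 4i/L/b, and LCDM (EPS) libraries lay above the primed range, and E-NHSM lay below it. *PHF19* fell in E-NHSM with a log2 fold change of -1.09 (SE 0.30, adjusted p = 0.012), which was lost without E-NHSM replicate 3 (-0.92 then), and rose most in 4i/L/b (0.89, adjusted p = 0.0025). Its call in TL-CDK8i was lost without TL-CDK8i replicate 2 or 3 (0.60 to 0.69 then), that in TL2i was lost without TL2i replicate 1 or 3 (0.63 then), and that in LCDM (EPS) was lost without LCDM (EPS) replicate 1, 2, or 3, or the primed libraries J1 or J2 (0.49 to 0.70 then).

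*PHF1* averaged 53.6 ± 16.9 CPM (SD, n = 6) in primed cells, and its libraries overlapped with the primed range in all 7 protocols. Its call in TL-CDK8i (-0.71) was lost without the primed libraries J1 or J2, or TL-CDK8i replicate 2 or 3 (-0.59 to -0.69 then), and that in TL2i (0.58) was lost without the primed libraries J2, K1, K2, or K3, or TL2i replicate 1, 2, or 3 (0.47 to 0.64 then). *AEBP2* was lower in 5 protocols and higher in TL-CDK8i, where the log2 fold change was 0.49 (adjusted p = 0.00262), and this call and that in t2iLGöY (-0.89, adjusted p = 9.64e-05) held with each library left out. Its call in E-NHSM was lost without E-NHSM replicate 1 or 2, or the primed libraries J1 or K2 (-0.30 to -0.43 then), and that in TL2i was lost without TL2i replicate 2 or 3 (-0.31 to -0.41 then). The call in 4i/L/b was lost without 4i/L/b replicate 1 or 2 (-0.31 to -0.37 then), and that in LCDM (EPS) was lost without LCDM (EPS) replicate 1 or 2, or the primed libraries J1, J2, or K2 (-0.22 to -0.41 then).

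The PHC subunits of canonical PRC1 join PRC1 particles through their SAM domains. At the RNA level, *PHC1* fell in all 7 protocols, whereas *PHC2* fell in E-NHSM and rose in the other 6. *PHC1* ranged from 637 to 739.9 CPM with a median of 646 in primed cells, and held 479, 447, and 439 CPM in E-NHSM and 525, 395, and 532 in TL-CDK8i. Its levels were 105, 97.2, and 93.7 under TL2i, 113, 101, and 99.9 under 4i/L/b, 121, 125, and 123 under NHSM-v, 151, 130.1, and 142 under t2iLGöY, and 166, 158, and 164 under LCDM (EPS). No library of any protocol reached the lowest primed library. *PHC1* fell in all 7 protocols, by 0.54 on the log2 scale in E-NHSM and by 0.49 in TL-CDK8i, and most in TL2i with a log2 fold change of -2.74 (SE 0.082, adjusted p = 1.41e-11).

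*PHC2* ranged from 36.5 to 55.2 CPM with a median of 46.3 in primed cells and held 13.2, 12.9, and 11.7 CPM in E-NHSM, and 116, 136, and 106 in TL-CDK8i. It reached 221, 201, and 217 under TL2i, 269, 254, and 269.6 under 4i/L/b, 288, 289.7, and 308 under NHSM-v, 233, 275, and 243 under t2iLGöY, and 206, 247, and 233 under LCDM (EPS). E-NHSM lay below and the other 6 protocols lay above all primed libraries, without overlap. *PHC2* fell in E-NHSM with a log2 fold change of -1.84 (SE 0.18, adjusted p = 5.12e-07), and rose most in NHSM-v with a log2 fold change of 2.66 (SE 0.11, adjusted p = 5.83e-11). *PHC3* was called higher in 6 protocols, by 0.51 in TL-CDK8i to 0.96 in LCDM (EPS) on the log2 scale, and the calls in TL2i, 4i/L/b, and LCDM (EPS) held with each library left out. Its call in TL-CDK8i was lost without the primed libraries J1, K2, or K3, or TL-CDK8i replicate 1 or 2 (0.47 to 0.54 then), that in NHSM-v was lost without NHSM-v replicate 1 or 3 (0.46 to 0.51 then), and that in t2iLGöY was lost without t2iLGöY replicate 3 (0.60 then).

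*BMI1*, the PCGF subunit of canonical PRC1 that represses the cell-cycle inhibitor locus *CDKN2A*, ranged from 7.88 to 29.5 CPM with a median of 17.3 in primed cells and held 4.04, 10.2, and 7.54 CPM in E-NHSM and 35.00, 34.3, and 25.8 in TL-CDK8i. Its levels were 79.05, 70.9, and 67.6 under TL2i, 76.8, 68.5, and 66.3 under 4i/L/b, 72.2, 85.2, and 62.98 under NHSM-v, 78.03, 92.6, and 82.9 under t2iLGöY, and 119.6, 91.96, and 121 under LCDM (EPS). All libraries of TL2i, 4i/L/b, NHSM-v, t2iLGöY, and LCDM (EPS) lay above the highest primed library, whereas E-NHSM and TL-CDK8i overlapped with primed cells. *BMI1* rose most in LCDM (EPS) with a log2 fold change of 2.55 (SE 0.28, adjusted p = 2.57e-06). In E-NHSM, it fell with a log2 fold change of -1.41 (adjusted p = 0.0104), a call lost without E-NHSM replicate 1 (-1.11 then). Its paralog *PCGF2* stayed between 38.8 CPM in 4i/L/b and 69.04 in t2iLGöY and was called lower in the former and higher in t2iLGöY and LCDM (EPS), by at most 0.53 on the log2 scale. The 4i/L/b call of *PCGF2* was lost against the primed libraries of letter J alone, and its t2iLGöY call (0.38) was lost without the primed libraries J1, J2, or K2, or t2iLGöY replicate 1 or 3 (0.28 to 0.38 then).

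**Figure D3:**
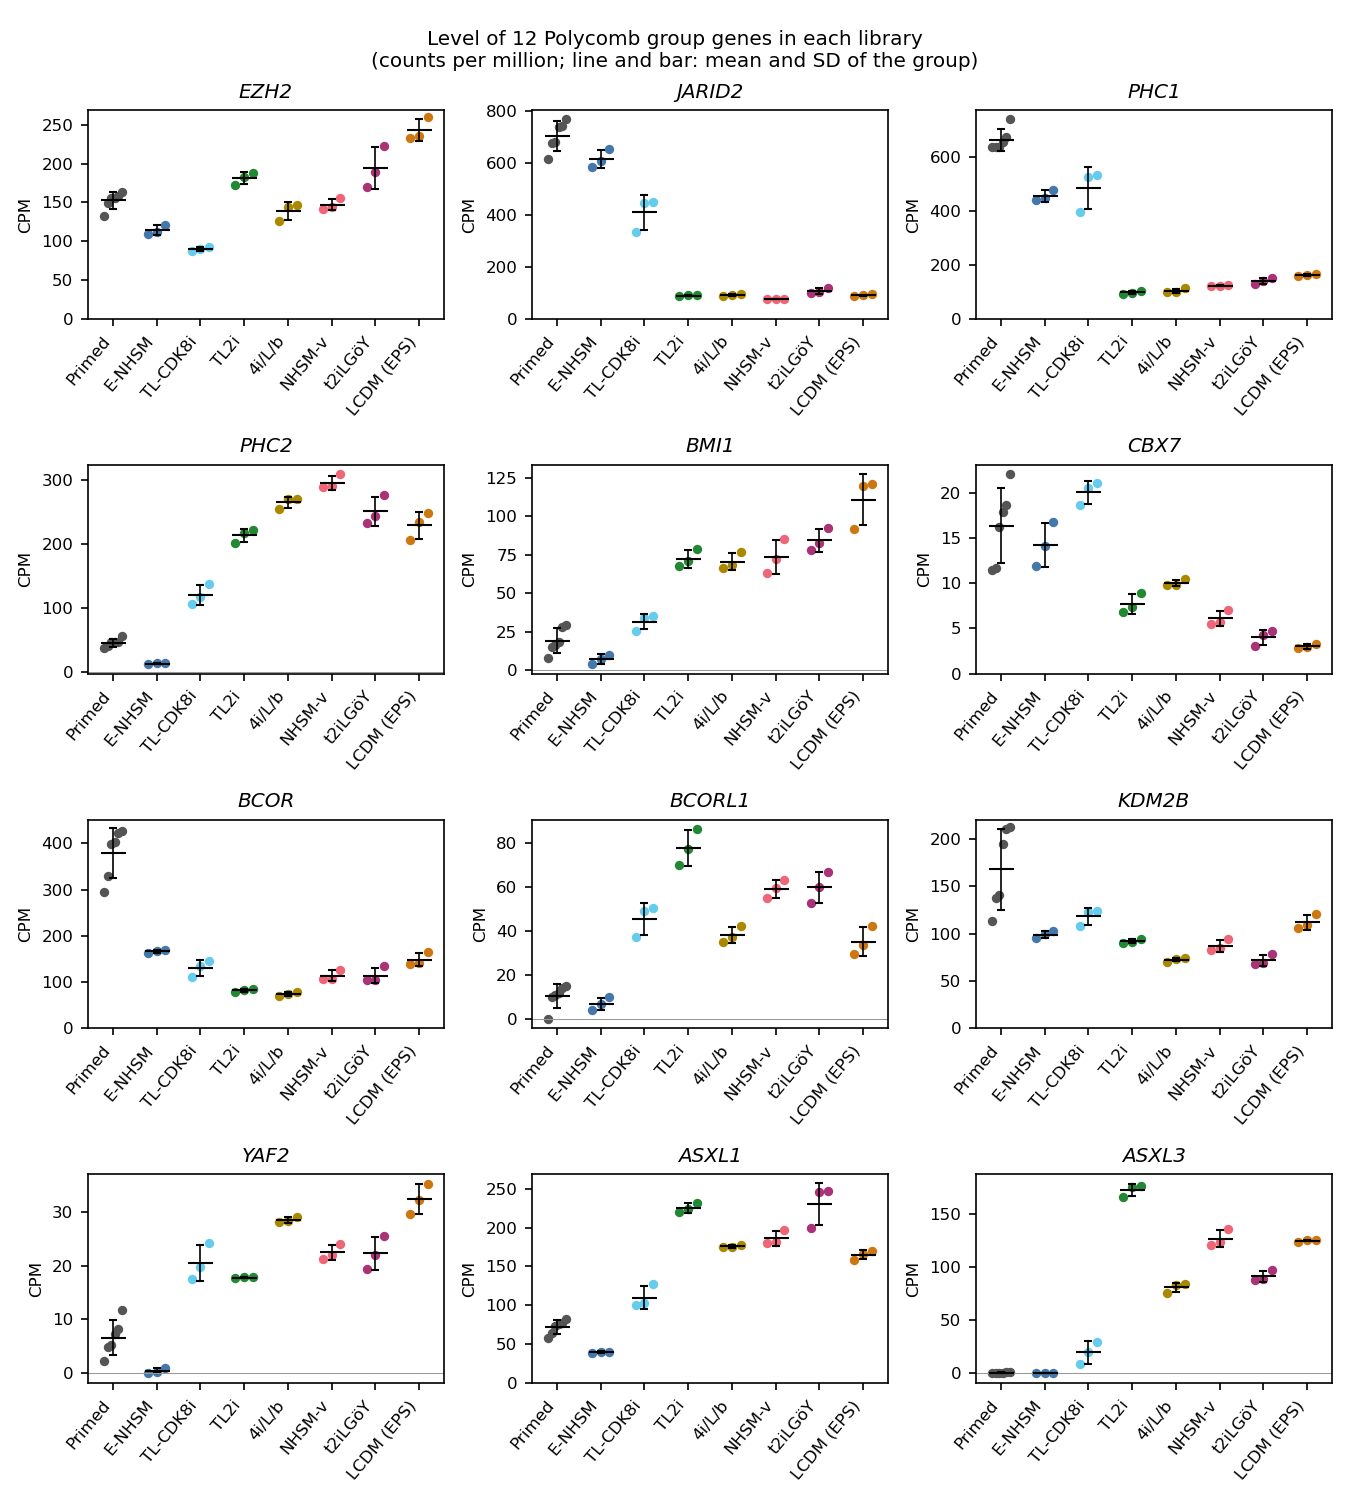
CPM of 12 members in each library, by group, on linear axes that include 0. Points are libraries, and the line and bar are the mean and SD of 6 primed or 3 protocol libraries. JARID2 and PHC1 are high in primed, E-NHSM, and TL-CDK8i libraries and low in the rest, and ASXL3 is at or near 0 in primed and E-NHSM libraries and at 75.7 to 176 CPM in the other 5 protocols beside TL-CDK8i.

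The CBX subunits bind trimethylated histone H3. *CBX7* ranged from 11.5 to 22.1 CPM with a median of 17.1 in primed cells and held 14.1, 11.9, and 16.7 CPM in E-NHSM and 20.5, 18.6, and 21.03 in TL-CDK8i. Its levels were 7.32, 6.85, and 8.89 under TL2i, 10.4, 9.84, and 9.77 under 4i/L/b, 5.51, 7.04, and 5.74 under NHSM-v, 3.06, 4.29, and 4.68 under t2iLGöY, and 2.83, 2.91, and 3.29 under LCDM (EPS). Libraries of these 5 protocols all lay below the lowest primed library, and those of E-NHSM and TL-CDK8i did not leave the primed range. *CBX7* fell most in LCDM (EPS) with a log2 fold change of -2.40 (SE 0.32, adjusted p = 2.14e-05), and its 4i/L/b call (-0.76) was lost without 4i/L/b replicate 1, 2, or 3, or the primed libraries J2 or K3 (-0.69 to -0.75 then).

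*CBX8*, a subunit of differentiating cells, ranged from 2.25 to 4.22 CPM with a median of 3.05 in primed cells and held 2.21, 1.498, and 3.23 CPM in E-NHSM and 5.41, 7.68, and 4.66 in TL-CDK8i. Its levels were 18.6, 15.6, and 15.4 under TL2i, 11.2, 9.48, and 8.704 under 4i/L/b, 11.5, 7.67, and 8.25 under NHSM-v, 16.8, 19.7, and 22.8 under t2iLGöY, and 16.3, 19.3, and 14.3 under LCDM (EPS). From TL-CDK8i onward in this order, every library lay above the highest primed library. *CBX8* was called higher in 5 protocols, most in t2iLGöY with a log2 fold change of 2.70 (SE 0.33, adjusted p = 6.89e-06), and its NHSM-v call was lost without NHSM-v replicate 1 (1.33 then). At TL-CDK8i, the log2 fold change of 0.89 did not pass (adjusted p = 0.138).

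*CBX6* ranged from 41.8 to 64.02 CPM with a median of 50.6 in primed cells and held 54.6, 51.4, and 54.5 CPM in E-NHSM and 58.4, 52.5, and 52.2 in TL-CDK8i. Its levels were 58.8, 62.4, and 61.6 under TL2i, 68.1, 76.8, and 70.1 under 4i/L/b, 161, 185, and 162 under NHSM-v, 103, 94.03, and 88.6 under t2iLGöY, and 96.4, 108, and 100.2 under LCDM (EPS). NHSM-v stood above every other group, and 4i/L/b, t2iLGöY, and LCDM (EPS) stood above all primed libraries. *CBX6* rose most in NHSM-v with a log2 fold change of 1.63 (SE 0.13, adjusted p = 5.32e-08), and NHSM-v exceeded LCDM (EPS), the next group, with a log2 fold change of 0.68 (SE 0.12, adjusted p = 1.75e-05). Its 4i/L/b call (0.39) was lost without 4i/L/b replicate 2 or 3 (0.35 to 0.41 then). *CBX2* was called in 4 protocols, higher in E-NHSM (0.35) and LCDM (EPS) (0.45) and lower in TL-CDK8i (-0.68) and 4i/L/b (-0.33), and it was the 1 member called higher in E-NHSM. That call was lost without E-NHSM replicate 1 (0.32 then), and the one in 4i/L/b was lost without 4i/L/b replicate 1 (-0.26 then).

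*SCMH1*, a homolog of the fly protein Sex comb on midleg, ranged from 8.05 to 19.3 CPM with a median of 11.4 in primed cells and held 22.02, 17.9, and 14.4 CPM in E-NHSM and 15.2, 17.9, and 16.7 in TL-CDK8i. It reached 21.7, 29.02, and 25.3 under TL2i, 35.2, 31.7, and 36.5 under 4i/L/b, 28.5, 20.6, and 29.9 under NHSM-v, 28.9, 39.05, and 44.7 under t2iLGöY, and 43.6, 45.6, and 48.2 under LCDM (EPS). Libraries of these 5 protocols lay above all primed libraries. *SCMH1* rose most in LCDM (EPS), with a log2 fold change of 1.92 (SE 0.23, adjusted p = 7.01e-06), and all 5 of its calls held with each library left out.

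Both ligases of PRC1 were called lower in TL-CDK8i, whereas *RING1* was called higher and *RNF2* lower in TL2i, 4i/L/b, and NHSM-v. *RING1* ranged from 32.1 to 54.95 CPM with a median of 41.8 in primed cells and held 40.3, 32.7, and 40.8 CPM in E-NHSM and 33.96, 23.9, and 19.8 in TL-CDK8i. Its levels were 72.9, 88.3, and 73.4 under TL2i, 65.5, 68.5, and 74.5 under 4i/L/b, 54.5, 72.2, and 57.3 under NHSM-v, 86.2, 62.2, and 64.2 under t2iLGöY, and 112, 136, and 106 under LCDM (EPS). LCDM (EPS) stood above all other groups, and TL2i, 4i/L/b, and t2iLGöY stood above the primed range. *RING1* rose most in LCDM (EPS) with a log2 fold change of 1.48 (SE 0.15, adjusted p = 1.70e-06), whereas its call in TL-CDK8i (-0.78) was lost without TL-CDK8i replicate 3 (-0.59 then) and that in NHSM-v (0.46) was lost without NHSM-v replicate 2 or 3 (0.32 to 0.52 then). *RNF2*, the ligase that accounts for most H2A ubiquitination in embryonic stem cells, was called lower in TL-CDK8i, TL2i, 4i/L/b, and NHSM-v, by 0.56 to 0.92 on the log2 scale, and was called in neither direction in E-NHSM, t2iLGöY, or LCDM (EPS). The TL2i call of *RNF2* was lost against the primed libraries of letter J alone.

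In variant PRC1, the pair *BCOR* and *BCORL1* moved apart. Both scaffold the PCGF1 form of PRC1, and *BCOR* also binds the repressor BCL6. *BCOR* ranged from 294 to 427 CPM with a median of 400.1 in primed cells and held 169, 168, and 163 CPM in E-NHSM and 134, 112, and 146 in TL-CDK8i. Its levels were 84.4, 78.98, and 82.95 under TL2i, 75.1, 78.3, and 69.8 under 4i/L/b, 107, 127, and 106 under NHSM-v, 134, 104, and 104 under t2iLGöY, and 141, 164, and 139 under LCDM (EPS). No library of any protocol reached the lowest primed library. *BCOR* fell in all 7 protocols, by 1.18 in E-NHSM to 2.39 in 4i/L/b on the log2 scale, and the largest was a log2 fold change of -2.39 (SE 0.12, adjusted p = 2.32e-09). *BCOR* was the member that fell most in TL-CDK8i (by 1.57). The study lists *BCOR* in a gene set chosen on these libraries, so its direction is not independent evidence.

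*BCORL1* ranged from 0.282 to 15.2 CPM with a median of 11.4 in primed cells and held 6.95, 4.44, and 9.96 CPM in E-NHSM and 49.2, 50.2, and 37.2 in TL-CDK8i. It reached 86.1, 69.7, and 77.3 under TL2i, 42.4, 37.4, and 35.1 under 4i/L/b, 55.00, 63.2, and 59.3 under NHSM-v, 66.6, 60.1, and 52.7 under t2iLGöY, and 33.6, 29.4, and 42.2 under LCDM (EPS). The 6 protocols other than E-NHSM lay above all primed libraries, and the primed library J3 lay far below the other 5 primed libraries. *BCORL1* rose most in TL2i with a log2 fold change of 2.87 (SE 0.45, adjusted p = 0.000124), and without the primed library J3 the log2 fold change was 2.64.

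*KDM2B* recruits the PCGF1 form of PRC1 to unmethylated CpG islands. It ranged from 113 to 213 CPM with a median of 167 in primed cells and held 102, 99.3, and 95.1 CPM in E-NHSM and 123, 108, and 124 in TL-CDK8i. Its levels were 91.4, 90.3, and 94.7 under TL2i, 73.3, 70.4, and 73.8 under 4i/L/b, 85.2, 93.98, and 82.2 under NHSM-v, 78.7, 67.8, and 68.9 under t2iLGöY, and 109, 120.2, and 106 under LCDM (EPS). The 3 primed libraries of letter J sat at 113 to 141 CPM and those of letter K at 194 to 213, and TL-CDK8i and LCDM (EPS) overlapped with the former. *KDM2B* was called lower in all 7 protocols, most in 4i/L/b with a log2 fold change of -1.26 (SE 0.18, adjusted p = 4.93e-05), whereas its call in TL-CDK8i (-0.54) was lost without the primed library K3, or TL-CDK8i replicate 1, 2, or 3 (-0.45 to -0.55 then) and that in LCDM (EPS) (-0.55) was lost without LCDM (EPS) replicate 1 or 3 (-0.49 to -0.51 then). Against the libraries of letter J alone, neither of these passed.

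Among the PCGF subunits of variant PRC1, *PCGF5* changed most. It ranged from 2.15 to 5.08 CPM with a median of 3.17 in primed cells and held 6.67, 7.88, and 4.41 CPM in E-NHSM and 34.5, 43.97, and 33.97 in TL-CDK8i. Its levels were 11.8, 12.3, and 11.6 under TL2i, 31.9, 28.8, and 24.5 under 4i/L/b, 22.7, 33.96, and 24.04 under NHSM-v, 13.4, 17.5, and 11.4 under t2iLGöY, and 25.1, 25.2, and 24.8 under LCDM (EPS). The 6 protocols other than E-NHSM lay above all primed libraries, and TL-CDK8i had the highest mean. *PCGF5* rose in these 6, most in TL-CDK8i with a log2 fold change of 3.40 (SE 0.27, adjusted p = 2.33e-07), and TL-CDK8i exceeded TL2i in the direct comparison with a log2 fold change of 1.67 (SE 0.26, adjusted p = 4.04e-06). Its paralog *PCGF3* was lower in TL-CDK8i (-0.36) and higher in the 5 others beside E-NHSM, by 0.23 in TL2i to 0.75 in LCDM (EPS) on the log2 scale. The TL-CDK8i call of *PCGF3* was lost without TL-CDK8i replicate 2 (-0.34 then), and its TL2i call was lost without the primed libraries J1, J2, or K3, or TL2i replicate 1, 2, or 3 (0.19 to 0.25 then).

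*PCGF6*, the subunit of a germline gene-silencing PRC1 with L3MBTL2, ranged from 25.6 to 39.1 CPM with a median of 34.8 in primed cells and held 43.2, 40.7, and 38.3 CPM in E-NHSM and 39.7, 40.6, and 46.4 in TL-CDK8i. Its levels were 29.6, 24.9, and 22.01 under TL2i, 18.6, 15.1, and 21.3 under 4i/L/b, 12.5, 11.4, and 11.7 under NHSM-v, 13.8, 19.2, and 11.7 under t2iLGöY, and 28.1, 20.96, and 27.2 under LCDM (EPS). NHSM-v, 4i/L/b, and t2iLGöY lay below all primed libraries, TL-CDK8i lay above them, and E-NHSM overlapped with the top of the primed range. *PCGF6* fell most in NHSM-v with a log2 fold change of -1.58 (SE 0.19, adjusted p = 4.66e-06), and its TL2i call was lost without the primed libraries J2, K1, K2, or K3, or TL2i replicate 2 or 3 (-0.32 to -0.42 then) and did not pass by DESeq2. *L3MBTL2* was called lower in 5 protocols, by 0.34 to 0.50, and its 4i/L/b call held with each library left out. Its call in TL2i was lost without TL2i replicate 1 or 2 (-0.33 to -0.37 then), that in NHSM-v was lost without NHSM-v replicate 1 or 3, or the primed libraries J1, J2, K1, K2, or K3 (-0.23 to -0.34 then), that in t2iLGöY was lost without t2iLGöY replicate 2 or 3 (-0.35 to -0.40 then), and that in LCDM (EPS) was lost without LCDM (EPS) replicate 1, 2, or 3 (-0.27 to -0.37 then).

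*PCGF1* had low counts. It ranged from 0.704 to 10.5 CPM with a median of 5.94 in primed cells, where the lowest value was that of J3, and held 9.204, 8.71, and 8.78 CPM in E-NHSM and 7.25, 6.14, and 6.37 in TL-CDK8i. Its levels were 9.03, 10.1, and 12.3 under TL2i, 10.7, 12.3, and 10.5 under 4i/L/b, 6.89, 6.202, and 11.5 under NHSM-v, 11.4, 10.1, and 6.12 under t2iLGöY, and 13.7, 18.3, and 14.9 under LCDM (EPS). LCDM (EPS) and 4i/L/b lay above all primed libraries, and the other 5 protocols overlapped with them. *PCGF1* was called in LCDM (EPS) alone, with a log2 fold change of 1.32 (SE 0.49, adjusted p = 0.0348) that was 1.10 without J3. The call was lost without LCDM (EPS) replicate 1, 2, or 3, or the primed libraries J1, K1, or K2 (1.21 to 1.42 then).

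*YAF2* and *RYBP* are interchangeable subunits of variant PRC1, which bind the ligase in the place of CBX proteins. *YAF2* ranged from 2.33 to 11.7 CPM with a median of 6.25 in primed cells and held 1.03, 0.111, and 0.215 CPM in E-NHSM and 17.6, 24.2, and 19.7 in TL-CDK8i. Its levels were 17.8, 17.8, and 17.6 under TL2i, 28.3, 29.04, and 28.1 under 4i/L/b, 24.00, 21.3, and 22.1 under NHSM-v, 22.00, 25.4, and 19.5 under t2iLGöY, and 35.2, 29.6, and 32.2 under LCDM (EPS). E-NHSM lay below all primed libraries, and the other 6 protocols lay above them. *YAF2* was the member that fell most in E-NHSM, with a log2 fold change of -3.82 (SE 0.80, adjusted p = 0.00157) that rests on 22, 2, and 4 reads in the 3 libraries and was -5.25 without E-NHSM replicate 1. It rose most in LCDM (EPS) with a log2 fold change of 2.33 (SE 0.36, adjusted p = 7.55e-05). *RYBP* was called lower in TL2i, 4i/L/b, NHSM-v, t2iLGöY, and LCDM (EPS), by 0.50 to 0.96 on the log2 scale, and all 5 calls held with each library left out.

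The ASXL proteins activate the deubiquitinase BAP1 in PR-DUB. *ASXL3*, which in adult tissues is expressed mainly in the brain, was the member that rose most in 6 protocols. It ranged from 0 to 1.48 CPM with a median of 0.389 in primed cells, with no read in 3 of 6 libraries, and none in the 3 E-NHSM libraries, where 3 counts would have been 0.141 to 0.166 CPM. TL-CDK8i held 29.7, 20.4, and 8.85 CPM, and the other levels were 165, 175, and 176 under TL2i, 82.6, 83.8, and 75.7 under 4i/L/b, 120.5, 123, and 135 under NHSM-v, 88.2, 97.4, and 87.97 under t2iLGöY, and 125, 124, and 125 under LCDM (EPS). These 6 protocols lay above all primed libraries, and TL-CDK8i lay lowest among them. In each of these comparisons, only the protocol libraries held enough reads for *ASXL3* to be tested, so only a rise could be called. In E-NHSM, it was not tested. *ASXL3* rose most in TL2i with a log2 fold change of 8.16 (SE 0.42, adjusted p = 2.22e-09), and in TL-CDK8i with a log2 fold change of 5.07 (SE 0.81, adjusted p = 0.000144). Without the primed library K2, these values were 8.89 and 5.73.

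*ASXL1* ranged from 57.5 to 82.5 CPM with a median of 74.9 in primed cells and held 38.2, 40.1, and 40.00 CPM in E-NHSM and 127, 101, and 102 in TL-CDK8i. It reached 220.0, 224, and 232 under TL2i, 175, 175, and 177 under 4i/L/b, 180.3, 197, and 181 under NHSM-v, 245, 199, and 247 under t2iLGöY, and 166, 169.9, and 158 under LCDM (EPS). E-NHSM lay below and the 6 others lay above all primed libraries. *ASXL1* fell in E-NHSM by 0.86 (adjusted p = 0.000125) and rose most in t2iLGöY with a log2 fold change of 1.72 (SE 0.12, adjusted p = 1.44e-08). *ASXL2* moved the other way and fell in TL2i, 4i/L/b, NHSM-v, t2iLGöY, and LCDM (EPS), by 0.56 to 0.89 on the log2 scale, with no call in E-NHSM or TL-CDK8i.

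The log2 ratio of CPM was taken within each library for 13 paralog pairs, which cancels the library's total count. The pairs were listed with earlier results of these data known, and their ratios restate changes given above gene by gene, so the tests add no independent evidence. Each of the 7 protocols was compared with primed cells by a two-sided exact permutation test of 6 against 3 libraries, with Benjamini-Hochberg adjustment over the 91 tests, and the smallest p this design allows is 0.0119. The ratio shifted in 7 pairs in E-NHSM, in 9 in TL-CDK8i, and in 11 in each of the other 5 protocols. Gene length cancels between libraries but not between genes, so shifts are given, not which paralog is more abundant.

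The ratio of *PHC2* to *PHC1* shifted in all 7 protocols. On the log2 scale, primed cells had a mean ± SD of -3.88 ± 0.20 over 6 libraries. The 3 libraries of E-NHSM had -5.15 ± 0.06, those of TL-CDK8i -2.01 ± 0.42, and those of 4i/L/b, the highest group, 1.34 ± 0.09. The ratio was 37.2-fold higher in 4i/L/b than in primed cells (exact permutation test, adjusted p = 0.0187, higher in 3 of 3 libraries) and fell by 1.28 in E-NHSM. Of the other pairs, *PCGF5* over *PCGF3* shifted toward *PCGF5* in all 7 protocols, by 1.02 in E-NHSM to 3.77 in TL-CDK8i. *BCORL1* over *BCOR* shifted toward *BCORL1* in 6, and its shift in TL2i was the largest of the 91 (5.63, and 4.89 without the primed library J3).

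In 4 pairs, E-NHSM shifted against the other 6 protocols. *YAF2* over *RYBP* changed by -3.80 in E-NHSM and by 1.91 to 3.40 in the others. *CBX8* over *CBX2* changed by -0.78 in E-NHSM and by 1.49 to 2.61 in the others. *ASXL2* over *ASXL1* changed by 0.88 in E-NHSM and by -0.40 to -2.48 in the others. *PHC2* over *PHC1* is the fourth, and all these shifts passed the test. *PCGF2* over *BMI1* also had opposite signs, with 1.22 in E-NHSM and -0.83 to -2.47 in the others. Its TL-CDK8i shift did not pass (exact permutation test, adjusted p = 0.0713). *RING1* over *RNF2* shifted toward *RING1* in 5 protocols by 0.82 to 1.42, but not in E-NHSM (0.13) or TL-CDK8i (-0.18). *EZH1* over *EZH2* shifted toward *EZH1* in TL-CDK8i (1.49), 4i/L/b (1.10), and t2iLGöY (1.14).

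**Figure D4:**
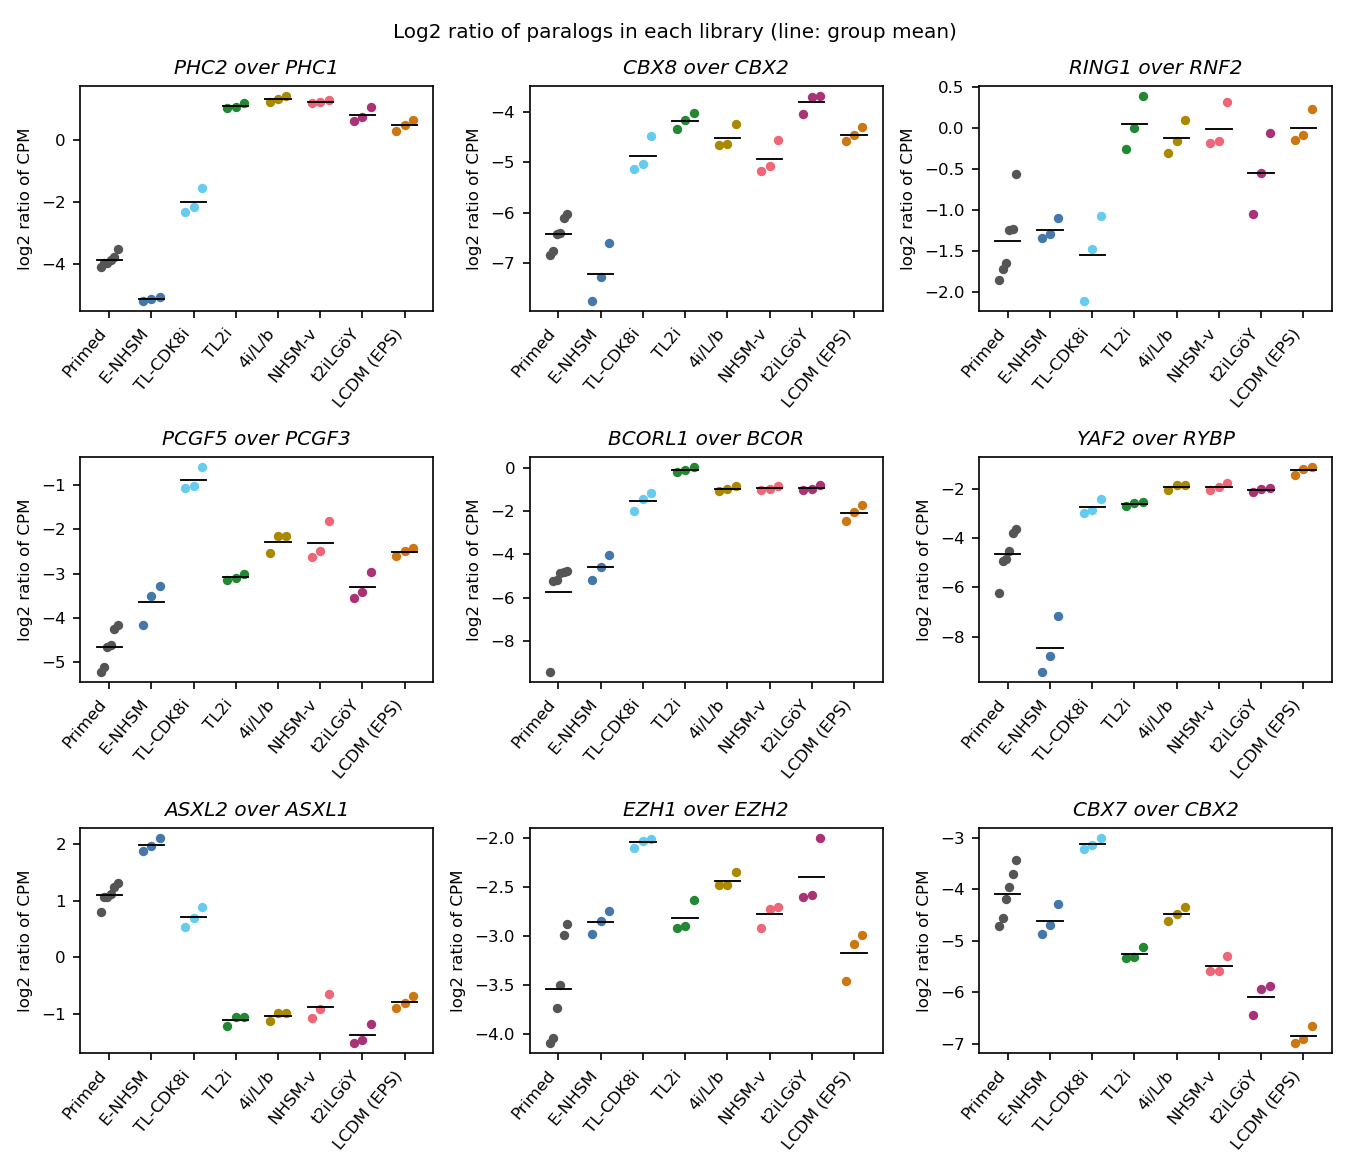
Log2 ratio of CPM between 9 pairs of paralogs in each library, by group. Points are libraries and lines are group means, and the vertical axes differ between panels and do not start at 0. The ratio of PHC2 to PHC1 lies near -3.88 in primed cells and above 0 in all libraries of TL2i, 4i/L/b, NHSM-v, t2iLGöY, and LCDM (EPS).

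The protocols were also compared with each other in 1 fit of all 27 libraries, in 21 contrasts. E-NHSM and t2iLGöY differed at the most members, 32 of 36 (60.9% of all genes were called in that contrast), and E-NHSM differed from TL-CDK8i at 22 (50.1% of all genes), from TL2i at 26 (53.5%), from 4i/L/b at 29 (58.5%), from NHSM-v at 26 (63.1%), and from LCDM (EPS) at 30 (59.6% of all genes). TL2i and 4i/L/b differed at the fewest, 10 of 36 (19.9% of all genes), and 4i/L/b and NHSM-v at 11 (30.7%). TL-CDK8i and TL2i, which share tamoxifen and LIF and differ in their inhibitors, differed at 22 members (45% of all genes). TL-CDK8i differed from 4i/L/b at 23 (44.9%), from NHSM-v at 23 (52.6%), from t2iLGöY at 28 (56%), and from LCDM (EPS) at 25 members (56.5% of all genes). Among the remaining contrasts, TL2i differed from NHSM-v at 17 (43.5%) and from t2iLGöY at 18 (41.9%), and t2iLGöY differed from 4i/L/b at 16 (35.2%) and from NHSM-v at 16 (41.4% of all genes). LCDM (EPS) differed from 4i/L/b at 19 members (40.9% of all genes), from NHSM-v at 20 (47.8%), from TL2i at 20 (42.4%), and from t2iLGöY at 14 (27.5% of all genes).

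Between the lowest and the highest protocol mean, *YAF2* spanned 71.4-fold (E-NHSM, with few reads, to LCDM (EPS)), *PHC2* 23.4-fold (E-NHSM to NHSM-v), *BMI1* 15.3-fold (E-NHSM to LCDM (EPS)), *BCORL1* 10.9-fold (E-NHSM to TL2i), and *CBX8* 8.55-fold (E-NHSM to t2iLGöY). *L3MBTL2* spanned 1.41-fold and *EED* 1.60-fold, and *PCGF1* was called in 1 of the 21 contrasts.

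Other genes of the Polycomb pathway were counted from lists chosen by their role. Of 20 further PRC1 and PRC2 partners, 2 were higher and 5 lower in E-NHSM, 4 and 4 in TL-CDK8i, 7 and 5 in TL2i, 6 and 7 under 4i/L/b, 5 and 6 under NHSM-v, 6 and 5 in t2iLGöY, and 8 and 3 in LCDM (EPS). In the same order, 35%, 40%, 60%, 65%, 55%, 55%, and 55% of these partners were called, where 26.2%, 46.1%, 50.7%, 55.6%, 58.6%, 54.3%, and 57.1% of all genes were. The largest called changes were those of *LCORL*, which can encode a PALI protein of PRC2 (log2 fold change 2.33 in LCDM (EPS)), and of *FBRS*. *AUTS2*, named after its values were seen and a partner of PCGF3 and PCGF5 that turns PRC1 toward activation, fell in all 7 protocols, from -0.34 in E-NHSM to -1.92 in 4i/L/b. *FBRS*, a homolog of AUTS2, rose in 6 protocols, from 0.95 in TL-CDK8i to 2.03 in NHSM-v.

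The 2 enzymes that remove methyl groups from lysine 27 of histone H3 moved apart. *KDM6B* averaged 49.7 CPM in primed cells and 265 in 4i/L/b, with a log2 fold change of 2.37 (SE 0.12, adjusted p = 2.37e-09), and *KDM6A* averaged 98.02 in primed cells and 46.8 in 4i/L/b, with a log2 fold change of -1.11 (SE 0.13, adjusted p = 6.54e-06). *KDM6B* was called higher and *KDM6A* lower in TL2i, 4i/L/b, NHSM-v, t2iLGöY, and LCDM (EPS), neither was called in E-NHSM, and *KDM6A* was higher in TL-CDK8i (0.53).

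Developmental regulators that PRC2 holds silent in embryonic stem cells were summed over a list of 20. Their CPM added up to 15.95 to 43.5 per library in primed cells, 4.04 to 6.49 in E-NHSM, 140.5 to 175 in TL-CDK8i, and between 157 and 492 in the other 5 protocols. The sums did not overlap between primed cells and any protocol, with E-NHSM below and the other 6 above. The largest called changes were those of *TBX5*, a heart and forelimb regulator, with no read in primed cells and a mean of 14.2 CPM in TL-CDK8i, and of *CDX2*, a trophoblast and gut regulator, with no read in primed cells and a mean of 4.76 CPM in TL2i. A further pair, *PAX3* and *PAX6*, was chosen after its values were seen. *PAX3*, a neural crest and muscle regulator, averaged 1.79 CPM in primed cells and 30.6 to 196 in the 6 protocols beside E-NHSM, and *PAX6*, a neural regulator, averaged 155 in t2iLGöY and 65.1 in LCDM (EPS), against 3.47 in primed cells. Of the list, 0 were called higher and 2 lower of 9 tested in E-NHSM, 7 and 0 of 13 in TL-CDK8i, 8 and 1 of 14 in TL2i, 2 and 0 of 11 in 4i/L/b, 5 and 2 of 11 in NHSM-v, 6 and 2 of 13 in t2iLGöY, and 5 and 1 of 14 in LCDM (EPS). In the same order, 22.2%, 53.8%, 64.3%, 18.2%, 63.6%, 61.5%, and 42.9% of those tested were called. Of all genes, 26.2%, 46.1%, 50.7%, 55.6%, 58.6%, 54.3%, and 57.1% were. Genes without reads in primed cells, such as *TBX5* and *CDX2*, were tested only where the protocol libraries held enough reads. For such genes, only a rise could be called, so the surplus of higher calls is in part set by the filter. Histone marks were not measured in these libraries.

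Markers of other cell types and of proliferation also differed from primed cells, in protocols that varied from 1 marker set to the next. The 10 neural markers summed to 2392 to 2651 CPM in primed cells and to 6544 to 6854 in LCDM (EPS), where all 10 were called higher, and 9 of 10 were in NHSM-v and t2iLGöY. The neural sums lay below all primed libraries in E-NHSM (1314 to 1461) and TL-CDK8i (2060 to 2169), and above them in every other protocol. In TL-CDK8i, 3 of 7 neural markers tested were nonetheless called higher and 1 lower. In both TL2i and 4i/L/b, 7 of 9 tested were higher and 0 lower. In E-NHSM, 1 of 6 was higher and 2 were lower, and in both NHSM-v and t2iLGöY, 1 of 10 was lower. The 8 fibroblast markers summed to 1162 to 2372 in primed and 11681 to 15294 in 4i/L/b cells, the highest group, but only to 406 to 449.8 in E-NHSM and 762 to 985 in LCDM (EPS), both below all primed libraries. Of those tested, 0 were higher and 5 lower in E-NHSM, 6 and 0 in TL-CDK8i, 7 and 1 in TL2i, 7 and 1 under 4i/L/b, 7 and 0 under NHSM-v, 3 and 2 in t2iLGöY, and 2 and 4 in LCDM (EPS). Among them, *DCN* and *LUM*, with no read in any primed library, were called higher in TL-CDK8i, TL2i, 4i/L/b, NHSM-v, and LCDM (EPS). For *DCN* and *LUM* as well, only a rise could be called. The 5 trophoblast markers summed to 3.66 to 14.6 CPM in primed cells, and to 146 to 230.4 in TL-CDK8i, 169.5 to 186 in LCDM (EPS), 109 to 162 in t2iLGöY, 96.2 to 102 in TL2i, and 20.5 to 26.1 in NHSM-v, all above the primed range, whereas E-NHSM and 4i/L/b overlapped with it. These sums rest on few genes. Of those tested, 1 of 4 was called higher in TL-CDK8i, 2 of 4 in TL2i, and 1 of 3 in NHSM-v, with 0 lower. In both t2iLGöY and LCDM (EPS), 1 of 3 was higher and 1 lower. None was higher in E-NHSM (2 of 4 lower) or 4i/L/b (1 of 2 lower). The 5 endoderm markers summed to 11.3 to 21.1 CPM in primed cells, and to more in TL-CDK8i (23.5 to 38.7), TL2i (45.3 to 76.99), and 4i/L/b (21.3 to 21.8), but to at most 11.0 in the other 4 protocols. Of 5 tested, 1 was called higher and 0 lower in TL-CDK8i, 3 and 1 in TL2i, and 0 and 1 in 4i/L/b. Elsewhere, 0 were higher, and 0 of 4 were lower in E-NHSM, 2 of 4 in NHSM-v, 2 of 3 in t2iLGöY, and 1 of 4 in LCDM (EPS). The 10 proliferation genes summed to 4530.5 to 5083 CPM in primed cells, and all 10 were called lower in 4i/L/b, NHSM-v, and t2iLGöY, 7 in TL2i and LCDM (EPS), and 5 in E-NHSM and TL-CDK8i. In TL-CDK8i, 1 proliferation gene was called higher. The part of these shifts in the Polycomb values was not tested.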

How the data were processed

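Bulk mRNA of 27 libraries, 6 of primed cells and 3 of each protocol, was analysed from raw counts. Per the labels and the submitters' processing notes, the authors sequenced directional mRNA libraries as single reads on a NextSeq500 and made the deposited counts of reads per gene with bcl2fastq, cutadapt, HISAT2, and HTSeq, and the versions and the genome build are not given in the sources used here. Primed columns were taken as replicates by the letter and number in their names, and the labels do not say what the letters J and K mean.

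TMM normalization, CPM, and quasi-likelihood tests on genes kept by filterByExpr were run with edgeR 4.0.16 in R 4.3.3 (limma 3.58.1 loaded), each protocol with the primed libraries alone, with adjustment over all genes tested. Log2 ratios used a prior count of 2. DESeq2 1.42, other normalizations and filters, each library left out, the replicate number as a block, and 1 letter of primed libraries were alternatives, and the test was checked on simulated counts. Replicate pairs differed by more than sampling noise (chi-square per gene of 4.06 to 30.8 over 36 pairs). Total counts per library (median 12201171) limit the precision of low members such as *CBX8* and *PCGF1*.

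The members and all lists were chosen with earlier results of these data known. CPM per library is written out for the 22 members with an adjusted p under 0.05 and a log2 fold change of at least 1 in size in at least 1 protocol, with fold change, SE, and adjusted p where it was largest and for the largest rise and fall of each protocol. Other members are given by range and counts, and other lists by counts with at most the 2 largest called changes where named. Markers of neural, fibroblast, endoderm, and trophoblast cells, pluripotency, and proliferation were listed by role. *EPOP* and *LCOR* were not matched by symbol. Members of 1 family can share reads, and the counting of such reads was not examined here.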

Additional observations from a re-analysis of the deposited data

Results flagged for a closer look

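Among the 36 members and 13 paralog ratios, 49 groups of 6 primed libraries were examined, and in 4 of them 1 library stood apart from the other 5 by the 95% critical value of Dixon's test, which chance alone does in about 1 in 20 groups. *PHF19* was at 8.45 CPM in the primed library J3, where the other 5 held 13.3 to 15.9 CPM. *BCORL1* was at 0.282 CPM in J3, where the others held 10.3 to 15.2 CPM, and the log2 ratio of *BCORL1* to *BCOR* was -9.41 in J3 and -5.25 to -4.77 in the others. *PHC1* was at 740 CPM in the primed library K2 and at 637 to 672 CPM in the others. Without J3, all 184 calls held, the rise of *BCORL1* in TL2i was 2.64 in place of 2.87, and the fall of *PHF19* in E-NHSM was -1.19 in place of -1.09 (log2 fold changes). Without K2, the fall of *PHC1* in TL2i was -2.72 in place of -2.74.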

How the results depend on the processing

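A minimum of 1 on the size of the log2 fold change left the largest differences from the counts above. It left 0 members higher and 5 lower in E-NHSM, 5 and 1 in TL-CDK8i, 9 and 4 in TL2i, 9 and 4 in 4i/L/b, 10 and 7 under NHSM-v, 10 and 6 in t2iLGöY, and 12 and 4 in LCDM (EPS), a reduction that follows from the added criterion. Members higher in E-NHSM were 3 with all 8 groups in 1 fit and 2 with the primed libraries of letter K alone, and the median of members in TL2i was 0.26 with upper quartile normalization. The cause was not tested. Of the 184 member calls, 180 held with DESeq2, 180 with RLE and 182 with upper quartile normalization, 181 without a filter on low counts, 161 against letter J alone, and 174 against letter K alone, and none of these settings turned a direction. The split by letter was chosen after seeing the data. The calls of *PCGF6* in TL2i and of *SUZ12* in 4i/L/b were among those lost with DESeq2.

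With 1 library left out at a time, members higher and lower were 0 to 1 and 8 to 11 in E-NHSM, 7 to 11 and 10 to 14 in TL-CDK8i, 13 to 17 and 10 to 14 in TL2i, 14 to 15 and 13 to 17 in 4i/L/b, 11 to 14 and 12 to 13 in NHSM-v, 14 to 16 and 12 to 14 in t2iLGöY, and 19 to 22 and 8 to 12 in LCDM (EPS). Their median log2 fold change ranged from -0.18 to -0.09, 0.054 to 0.20, 0.19 to 0.24, -0.06 to 0.07, -0.05 to 0.08, 0.14 to 0.25, and 0.48 to 0.56 in the same order.

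With the replicate number as a block, 175 of the 184 calls held. The numbers did not pair the libraries, since deviations from the group means of same-numbered libraries correlated at -0.0532 to 0.0441 and in 0 of 7 protocols did every library correlate best with its own number.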

Other observations

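Genes that act with or against Polycomb beyond its own complexes were counted from lists chosen with earlier results known. Of 9 tested genes of PR-DUB and of H2A deubiquitination, the step that undoes the mark of PRC1, 0 were higher and 4 lower in E-NHSM, 1 and 4 in TL-CDK8i, 7 and 0 in TL2i, 6 and 1 in both 4i/L/b and NHSM-v, 3 and 1 in t2iLGöY, and 5 and 0 in LCDM (EPS). The largest rise was that of *KDM1B*, a demethylase of lysine 4 on histone H3, at 3.67 CPM in primed cells and 25.3 in t2iLGöY in edgeR's test, with a log2 fold change of 2.81 (SE 0.50, adjusted p = 0.000235). The largest fall was that of *FOXK1*, a forkhead factor that binds PR-DUB, at 26.6 CPM in primed cells and 10.5 in E-NHSM in edgeR's test, with a log2 fold change of -1.34 (SE 0.31, adjusted p = 0.00312).

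Trithorax group proteins and the enzymes of H3K36 methylation act against Polycomb. Of 9 such genes, 1 was higher and 4 lower in E-NHSM, 0 and 6 in TL-CDK8i, 5 and 3 in TL2i, 2 and 3 under 4i/L/b, 5 and 3 under NHSM-v, 3 and 1 in t2iLGöY, and 4 and 1 in LCDM (EPS). The largest changes were those of *ASH1L*, an H3K36 methyltransferase (1.22, edgeR, adjusted p = 4.64e-07), and *KMT2C*, an H3K4 methyltransferase (1.10, edgeR, adjusted p = 1.28e-06), both log2 fold changes in LCDM (EPS). In both lists, the called share was above that of all genes in some protocols and below it in others. In the order given, 44.4%, 55.6%, 77.8%, 77.8%, 77.8%, 44.4%, and 55.6% of the PR-DUB list tested were called. For the Trithorax list, the shares were 55.6%, 66.7%, 88.9%, 55.6%, 88.9%, 44.4%, and 55.6%. Of all genes, 26.2%, 46.1%, 50.7%, 55.6%, 58.6%, 54.3%, and 57.1% were called. All protocols share the 6 primed libraries, so these counts are not independent of each other.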
